A study of Mus musculus with 22 samples.

Results

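The genes described here are 42 genes of presynaptic vesicle release, the set of proteins with which a nerve terminal stores transmitter in vesicles, docks and primes them at the membrane, fuses them and takes the membrane back. Every non-control probe whose RefSeq transcript belongs to one of these genes was taken, which gave 60 probes out of 55681 on the array. A single probe stood for 29 of the genes, 10 genes had 2 probes, Cadps2 had 3, and Cplx2 and Pclo had 4 each. They were compared between TgproNGF#3 mice and wild-type (WT) controls of 3 ages. At 3 months Sv2c, measured in 3 of 4 TgproNGF#3 mice, passed the thresholds of the study upwards and Rims1 passed them downwards. Both calls were lost in several other settings, and neither gene was called with the log2 values of the authors. The direction of Sv2c turned when the dim spot of the remaining mouse was kept (Log2 FC -0.16). At the same age Doc2a and Slc17a6 were higher with an adjusted p below 0.05, which rose above 0.05 when some single mice were left out (4 of 8 mice for Doc2a and 7 of 8 for Slc17a6). No gene passed either criterion at 1 or at 12 months.

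In a terminal, vesicles are filled with glutamate by vesicular transporters and tethered at the active zone by large scaffold proteins such as bassoon, piccolo and the RIM proteins. Munc13 and CAPS proteins prime the vesicles, and the SNARE proteins synaptobrevin, syntaxin and SNAP-25 pull the membranes together when calcium enters, with complexins holding and releasing the assembled complex. Afterwards NSF and the SNAP adaptors take the SNARE complex apart, and amphiphysin, endophilin, synaptojanin and dynamin retrieve the membrane. In the hippocampus the messenger RNAs of these proteins lie in principal neurons and interneurons, whereas axons entering from other brain regions bring protein but little of their RNA.

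TgproNGF#3 is a transgenic line from a single founder, on a C57Bl/6xDBA/2 background, in which the neuronal Thy1.2 promoter drives a furin-resistant mouse proNGF, followed by an IRES and EGFP. WT mice of the same strain were the controls, and none of the mice was treated. The right hippocampus of each mouse gave RNA for 1 array, with 4 mice of each genotype at the age of 1 month, 4 of each at 3 months and 3 of each at 12 months. The labels give males at the 2 younger ages and females at 12 months, and every age has its own slide, so differences between ages cannot be told apart from sex or slide.

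Levels are log2 intensities relative to the 75th percentile of the same array, and Log2 FC is the TgproNGF#3 mean minus the WT mean on that scale. A probe was called when its unadjusted limma p was below 0.05 and its Log2 FC above 1 or below -1, and adjusted p-values are Benjamini-Hochberg values over all probes tested at that age. For a gene with several probes, the probe with the highest mean level stands for the gene. In bulk tissue, fewer cells of a type and less RNA per cell cannot be told apart. Between 57.6% and 80.3% of spots per array were well above background, and within a group the median correlation between arrays was 0.977 to 0.993. The lowest of both values belonged to TgproNGF#3 replicate 4 at 3 months. No spot was saturated.

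All 60 probes could be compared at 1 month and 58 at 3 and at 12 months. Of those compared, 59, 56 and 58 were measured on every array of their age. The probe of Rims3, a small RIM protein, and the dimmer probe of Sv2c had too few arrays above background at the 2 older ages. At 1 month 0 of 60 probes were called, against 0.57% of all probes. Of the 60, 3 had an unadjusted limma p below 0.05 (5%, against 3.47% of all), and none had an adjusted p below 0.05, as on the whole array (0%). At 3 months 2 of 58 probes were called (3.45%), against 6.76% of all probes. The call was up for Sv2c, against 0.643% of all probes, and down for Rims1, against 6.12%. Of the 58, 15 had an unadjusted p below 0.05 (25.9%), against 27.2% of all, and 2 had an adjusted p below 0.05 (3.45%), against 8.43%, and both were higher, against 1.57%. Of the 15, 8 were higher (13.8% of the 58, against 7.48%) and 7 lower (12.1%, against 19.7%). Whether this split differed from that of the array was not tested, and the split of all the genes by sign at 3 months depended on the scaling (21 higher and 20 lower, but 28 and 13 with the percentile over all spots). At 12 months 0 of 58 were called, against 1.3% of all probes, and none had an adjusted p below 0.05. Of the 58, 5 had an unadjusted p below 0.05 (8.62%, against 9.05% of all), all of them higher, against 3.11% of all probes. Taken without direction, the shares at the 3 ages lay near or below those of the whole array.

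**Figure D1:**
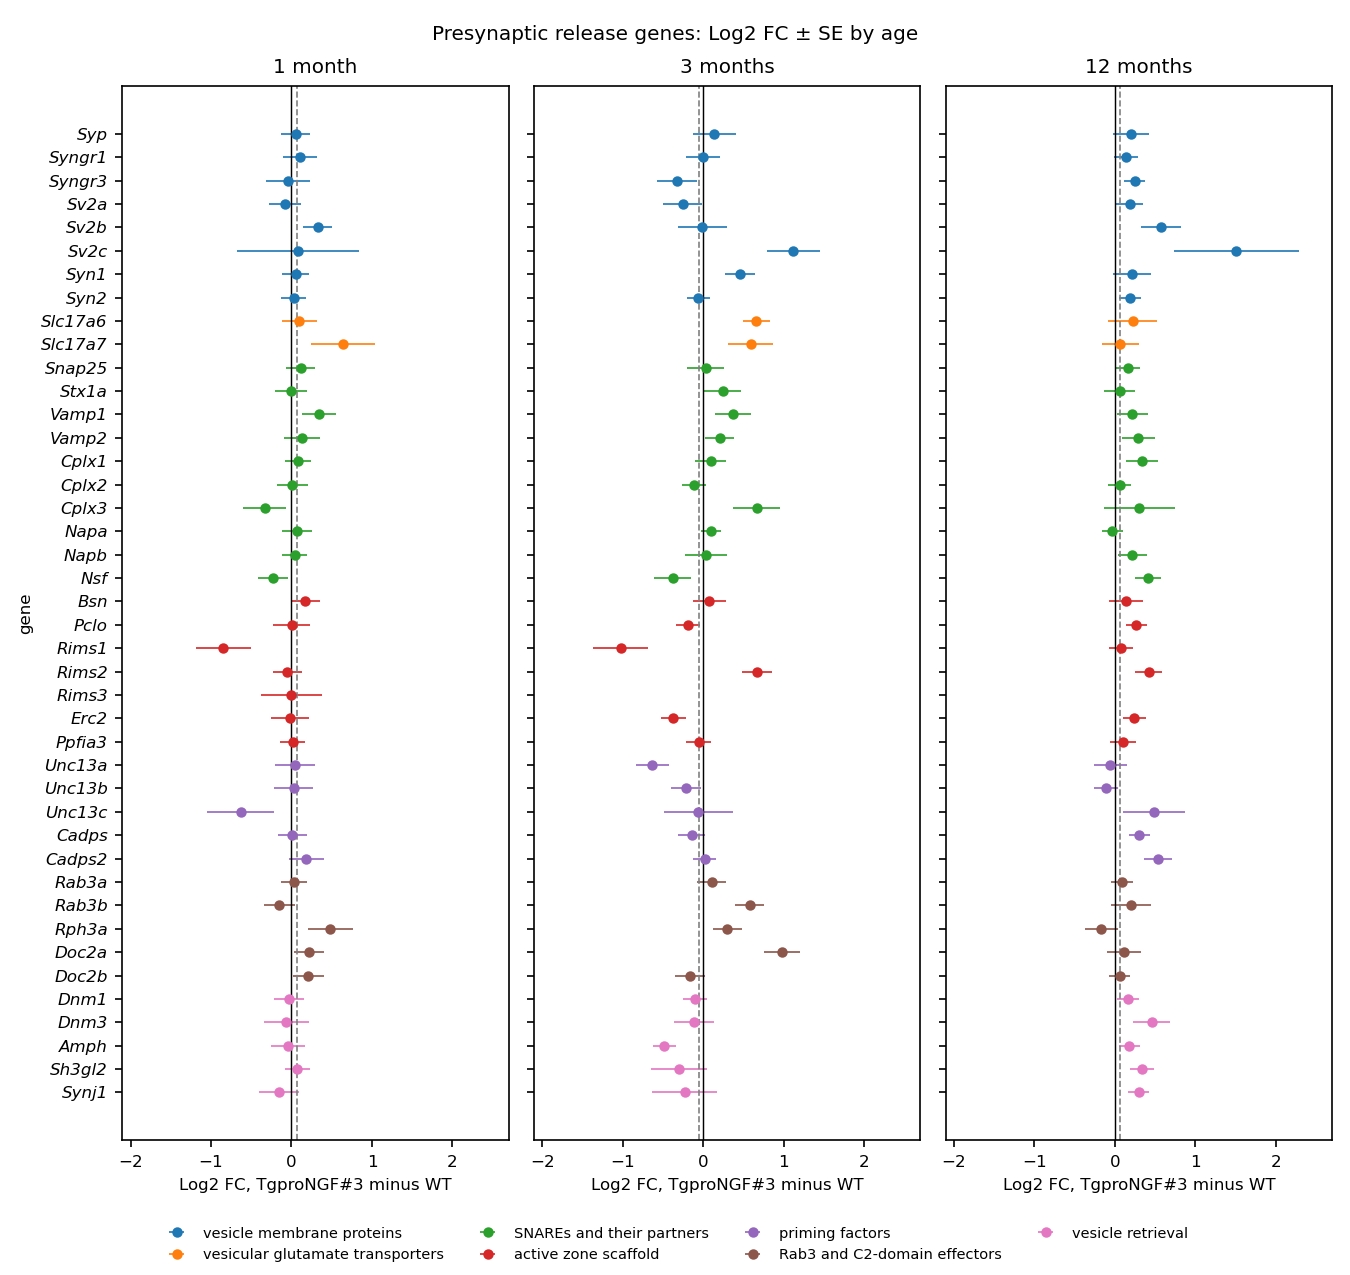
Log2 FC (TgproNGF#3 minus WT, x axis) with its SE for each gene (y axis, grouped and coloured by role) at 1, 3 and 12 months, with the solid line at 0 and the dashed line at the median of all genes. At 12 months 37 of 41 genes lie to the right of 0, and at 3 months Sv2c and Doc2a lie farthest to the right and Rims1 farthest to the left.

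Among the proteins of the vesicle membrane, Sv2c was called at 3 months. It encodes one of 3 related SV2 glycoproteins that sit in the vesicle membrane and regulate its readiness for release. In TgproNGF#3 mice replicates 1 to 3 its levels were -3.43, -3.12 and -2.02, and the spot of replicate 4 was not well above background. In WT mice they were -3.84, -4.21, -3.66 and -4.19, so the 3 measured TgproNGF#3 values lay above all WT values. Log2 FC was 1.12 ± 0.33 (SE, n = 3 and 4, limma adjusted p = 0.0701). The dim spot of replicate 4 stood at -8.52 on the same scale, lower than any WT mouse, and with dim spots kept Log2 FC was -0.16 (adjusted p = 0.994). The call therefore covered the 3 mice in which the probe was measured. The call was lost without TgproNGF#3 replicate 3 (Log2 FC 0.71), after the normexp correction (0.85) and with all 22 arrays in the same fit (adjusted p = 0.336). Sv2c was also not called with the log2 values of the authors.

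The same probe of Sv2c varied widely at the other ages. At 1 month levels in TgproNGF#3 mice were -2.73, -5.02, -1.78 and -2.82 and in WT mice -2.56, -2.26, -5.18 and -2.68, with 1 very low mouse in each group and full overlap. At 12 months the 3 TgproNGF#3 mice lay together at -1.65, -1.70 and -1.65, while the WT mice spread over -2.77, -5.17 and -1.61. Log2 FC was then 1.51 ± 0.78 (SE, n = 3 and 3, limma adjusted p = 0.569), and at that age Sv2c was called in 2 alternative settings, without WT replicate 3 and with arrays aligned to their median. Choroid plexus markers also varied between mice of 1 group: their summed level ran from 6.25 to 135 over the TgproNGF#3 mice of 3 months and from 73.2 to 111 over the WT mice. All 8 choroid plexus markers had negative Log2 FC at that age, opposite in sign to Sv2c, and their part in the spread of Sv2c was not tested.

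Sv2b, the SV2 protein typical of glutamatergic terminals, was one of the 2 genes with the smallest p on the higher side at 1 month (Log2 FC 0.33 ± 0.18, limma adjusted p = 1). Its levels were 2.57, 2.54, 2.27 and 2.32 in TgproNGF#3 mice and 2.46, 1.95, 1.94 and 2.04 in WT mice, which overlapped through WT replicate 1. At 1 month same-numbered arrays of both genotypes deviated together and lie in the same row of the slide. Whether this reflects paired mice or the row cannot be told apart. In 4 of 4 such same-numbered pairs the TgproNGF#3 mouse was the higher, counted on the values by which the gene was named. At 3 months its Log2 FC was -0.01, with TgproNGF#3 replicate 4 at 0.86 and the other TgproNGF#3 mice between 2.00 and 2.36. At 12 months Log2 FC was 0.58 ± 0.24 (limma adjusted p = 0.549). The remaining members of this group are Syp, Syngr1 and Syngr3, tetraspan vesicle proteins, Sv2a, and the synapsins Syn1 and Syn2, which hold vesicles in the reserve pool. Over the 8 genes of the group, 6, 4 and 8 had a positive Log2 FC at 1, 3 and 12 months, with medians of 0.05, -0.00 and 0.21. With the percentile taken over all spots these counts were 3, 6 and 8.

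The vesicular glutamate transporters were both on the positive side at every age under the 4 scalings tried. Slc17a6 encodes VGLUT2, which in the adult forebrain marks mainly thalamic and other subcortical neurons, and Slc17a7 encodes VGLUT1 of cortical and hippocampal principal neurons. At 3 months Slc17a6 levels were -1.09, -0.78, -0.65 and -0.76 in TgproNGF#3 mice and -1.22, -1.82, -1.55 and -1.34 in WT mice, without overlap. Log2 FC was 0.66 ± 0.17 (SE, n = 4 and 4, limma adjusted p = 0.0455). The adjusted p was close to the threshold: it lay above 0.05 when any mouse but TgproNGF#3 replicate 1 was left out (0.0604 to 0.104), with the array row as a block (0.0661) and with dim spots kept (0.0608). At 1 and 12 months the groups overlapped, with Log2 FC of 0.10 and 0.23. The summed level of 8 thalamic neuron markers, of which 7 were above background on all arrays, was 2.80 to 4.92 in TgproNGF#3 mice and 2.71 to 3.75 in WT mice at 3 months. Of the 7, 5 were higher and 2 lower, and the only one with an adjusted limma p below 0.05 was Tcf7l2, which was lower (Log2 FC -0.70, adjusted p = 0.0312). The part of these cells in the Slc17a6 difference was not tested.

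For Slc17a7 the 3-month levels were 1.90, 1.82, 1.70 and 0.73 in TgproNGF#3 mice and 0.79, 1.44, 0.77 and 0.80 in WT mice. In TgproNGF#3 mice replicates 1 to 3 lay above all WT mice and replicate 4 lay below them. Log2 FC was 0.59 ± 0.28 (limma adjusted p = 0.206), against 0.64 ± 0.40 at 1 month, where the TgproNGF#3 mouse was the higher in 4 of 4 pairs, and 0.07 ± 0.23 at 12 months.

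Of the SNARE proteins and their partners, none was called and none had an adjusted p below 0.05 at any age. The group holds Snap25, Stx1a, Vamp1 and Vamp2, the complexins Cplx1 to Cplx3, the SNAP adaptors Napa and Napb, and Nsf, the ATPase that separates used SNARE complexes. Log2 FC over these 10 genes ran from -0.34 (Cplx3) to 0.34 (Vamp1) at 1 month, from -0.38 (Nsf) to 0.66 (Cplx3) at 3 months, and from -0.03 (Napa) to 0.41 (Nsf) at 12 months. Snap25, a SNARE protein of the plasma membrane, had 12-month levels of 5.82, 5.48 and 5.74 in TgproNGF#3 mice and between 5.35 and 5.6 in WT mice, which overlapped.

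Nsf was the gene of this group with the smallest p at 12 months. Its levels were 4.97, 5.22 and 5.06 in TgproNGF#3 mice and 4.62, 4.47 and 4.92 in WT mice. The groups did not overlap, and Log2 FC was 0.41 ± 0.16 (SE, n = 3 and 3, limma adjusted p = 0.549). All TgproNGF#3 arrays of 12 months and WT replicate 3 lie in the same row of the slide, and with the array row as a block the Log2 FC of Nsf was 0.16. At 1 and 3 months its Log2 FC had the opposite sign (-0.23 and -0.38).

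The active zone scaffold held the other called gene. Rims1 encodes RIM1, which ties Rab3 on the vesicle to calcium channels and Munc13 at the release site. At 3 months its brighter probe gave levels of -3.09, -3.31, -2.85 and -4.20 in TgproNGF#3 mice and -1.59, -2.72, -2.78 and -2.26 in WT mice. The groups did not overlap, though TgproNGF#3 replicate 3 and WT replicate 3 lay close together. Log2 FC was -1.02 ± 0.34 (SE, n = 4 and 4, limma adjusted p = 0.0931). The fold change stood just past the threshold, and the call was lost without TgproNGF#3 replicate 4 (Log2 FC -0.74), without WT replicate 1 (-0.77) and without WT replicate 4, where the Log2 FC came to just above -1. It was also lost with dim spots kept, with the percentile over all spots and after the normexp correction (Log2 FC -0.89 in each), with the log2 values of the authors (-0.94) and with arrays aligned to their median (-0.98). With all 22 arrays in the same fit, the adjusted p was 0.0344, and over the other settings that kept all mice it ran from 0.0711 to 0.147.

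Rims1 was also the gene with the smallest p on the lower side at 1 month. There its levels were -1.59, -1.30, -1.22 and -2.74 in TgproNGF#3 mice and -0.73, -1.27, -0.40 and -1.07 in WT mice, with TgproNGF#3 replicate 3 just above WT replicate 2. In 4 of 4 same-numbered pairs the TgproNGF#3 mouse was the lower, counted on the values by which the gene was named. Log2 FC was -0.85 ± 0.34 (limma adjusted p = 1), and -0.50 without TgproNGF#3 replicate 4. At 12 months the groups overlapped, and Log2 FC was 0.08 ± 0.15. The dimmer probe of Rims1 had Log2 FC of 0.12, -0.69 and 0.35 at 1, 3 and 12 months, so its sign matched that of the brighter probe at the 2 older ages. At 3 months that probe split the TgproNGF#3 mice, with -3.71 and -4.97 in replicates 1 and 4, and -2.62 and -2.50 in replicates 2 and 3, while the WT mice lay between -2.81 and -2.69.

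The paralog Rims2 went the other way at 3 months. Its levels were -1.28, -1.26, -1.13 and -1.84 in TgproNGF#3 mice and -2.06, -1.88, -1.94 and -2.31 in WT mice, and the groups did not overlap. Log2 FC was 0.67 ± 0.18 (limma adjusted p = 0.0540), and 0.42 ± 0.17 at 12 months (adjusted p = 0.549), again without overlap. Its values are given because of the contrast with Rims1 and were chosen after they were seen. Over the 6 scaffold genes tested at 3 months, which also include Bsn, Pclo, Erc2 (the scaffold protein ELKS2) and Ppfia3 (a liprin-α), 2 had a positive and 4 a negative Log2 FC, and 3 each with the percentile over all spots. At 12 months all 6 were positive, from 0.08 to 0.42.

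Of the 5 priming factors 4 had a negative Log2 FC at 3 months, and 3 with the percentile over all spots. Unc13a encodes Munc13-1, the main priming protein of excitatory terminals in the forebrain. Its 3-month levels were -3.26, -3.60, -3.90 and -3.72 in TgproNGF#3 mice and -3.23, -3.24, -2.54 and -2.93 in WT mice, with replicate 1 of the TgproNGF#3 mice just below the lowest WT mouse. Log2 FC was -0.63 ± 0.20 (SE, n = 4 and 4, limma adjusted p = 0.0851). At 1 and 12 months its Log2 FC was 0.04 and -0.05. Its paralog Unc13b (Munc13-2) had Log2 FC of 0.03, -0.21 and -0.11 at 1, 3 and 12 months. At 12 months, where few genes lay on the lower side and Unc13b had one of the 2 smallest p-values among them (limma adjusted p = 0.797), the levels of Unc13b were 1.48, 1.13 and 1.39 in TgproNGF#3 and 1.47, 1.30 and 1.55 in WT mice, and the sign turned to 0.04 when arrays were aligned to their median.

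Unc13c (Munc13-3) at 1 month had levels of -2.20, -2.07, -2.20 and -3.46 in TgproNGF#3 mice and -1.17, -2.25, -1.24 and -2.74 in WT mice. Both groups held high and low mice, and the TgproNGF#3 mouse was the lower in 3 of 4 pairs. Log2 FC was -0.63 ± 0.41 (limma adjusted p = 1), and -0.31 without TgproNGF#3 replicate 4. The 2 CAPS genes, Cadps and Cadps2, encode priming factors best known from dense-core vesicles, which carry neuropeptides and neurotrophins.

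Cadps2 had the smallest p of the 41 genes tested at 12 months. With its brightest probe, levels were -0.05, 0.09 and 0.39 in TgproNGF#3 mice and -0.51, -0.20 and -0.47 in WT mice, without overlap. Log2 FC was 0.54 ± 0.17 (SE, n = 3 and 3, limma adjusted p = 0.549). It was 0.62 with the array row as a block, where WT replicate 3 is the only WT mouse compared. The other probes of Cadps2 were also free of overlap at that age, with Log2 FC of 0.47 and 0.27. For 3 mice against 3 the smallest two-sided p of an exact permutation test is 0.1. At 3 months the 3 probes of Cadps2 differed among themselves (Log2 FC 0.02, -0.16 and -0.84).

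Of the Rab3 proteins and the C2-domain proteins that act with them, Doc2a had the smallest p of all members at any age. Doc2a is a calcium-binding protein of spontaneous and asynchronous release at excitatory terminals. At 3 months its levels were 0.18, -0.15, -0.62 and -0.68 in TgproNGF#3 mice and -1.59, -1.10, -1.09 and -1.41 in WT mice. The groups did not overlap, and the lowest TgproNGF#3 mouse lay well above the highest WT mouse. Log2 FC was 0.98 ± 0.22 (SE, n = 4 and 4, limma adjusted p = 0.0277), just under the threshold of 1 for a call. It was past that threshold when arrays were aligned to their median (1.02), after quantile normalization (1.02), with the log2 values of the authors (1.07), with the percentile over all spots (1.11) and with dim spots kept (1.12). Leaving out TgproNGF#3 replicate 3 or 4 or WT replicate 2 or 3 also took it past 1 (1.05 to 1.10). The adjusted p rose above 0.05, to between 0.0565 and 0.0926, without TgproNGF#3 replicate 1 or 2 and without WT replicate 1 or 4.

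At 1 month Doc2a levels were -0.40, -0.29, -0.63 and -0.38 in TgproNGF#3 and -0.29, -0.60, -0.73 and -0.94 in WT mice, and at 12 months -1.15, -1.24 and -0.59 against -1.32, -1.06 and -0.93. The groups overlapped at both ages, with Log2 FC of 0.21 and 0.12. The difference at 3 months minus that at 1 month was 0.77 ± 0.28 (adjusted p = 0.233), and the difference at 12 months minus that at 3 months was -0.87 ± 0.32 (adjusted p = 0.154).

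Rph3a encodes rabphilin, an effector of Rab3 and Rab27. Its 1-month levels were 0.98, 1.32, 1.41 and 1.62 in TgproNGF#3 mice and 0.55, 1.36, 0.18 and 1.29 in WT mice, with 2 low WT mice, and the TgproNGF#3 mouse was the higher in 3 of 4 pairs. Log2 FC was 0.48 ± 0.28 (limma adjusted p = 1), and 0.26 without WT replicate 3. At 12 months Log2 FC was -0.17 ± 0.21, and -0.01 with the array row as a block, where WT replicate 3 is the only WT mouse compared. In the group of 5 genes, which also includes Rab3a, Rab3b and Doc2b, 4 had a positive Log2 FC at each age, with a median of 0.30 at 3 months, and 3 at 1 month with the percentile over all spots.

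All 5 genes of vesicle retrieval had negative Log2 FC at 3 months and positive Log2 FC at 12 months. At 3 months Dnm1 turned positive after quantile normalization, and Dnm1 and Dnm3 did with the percentile over all spots. Amph encodes amphiphysin, which brings dynamin and clathrin adaptors to the neck of a budding vesicle. Its 3-month levels were 3.70, 3.37, 3.18 and 3.61 in TgproNGF#3 mice and 3.98, 3.87, 3.94 and 3.99 in WT mice. The WT mice lay close together and above every TgproNGF#3 mouse. Log2 FC was -0.48 ± 0.15 (SE, n = 4 and 4, limma adjusted p = 0.0758). At 12 months the order was reversed without overlap, with 4.03, 4.15 and 4.04 against 3.97, 3.82 and 3.89 and a Log2 FC of 0.18 ± 0.13 (adjusted p = 0.625). The difference between these ages was 0.66 ± 0.19 (adjusted p = 0.0719). Dnm1, Dnm3, Sh3gl2 and Synj1 had 3-month Log2 FC between -0.30 and -0.11 and 12-month Log2 FC between 0.16 and 0.46.

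**Figure D2:**
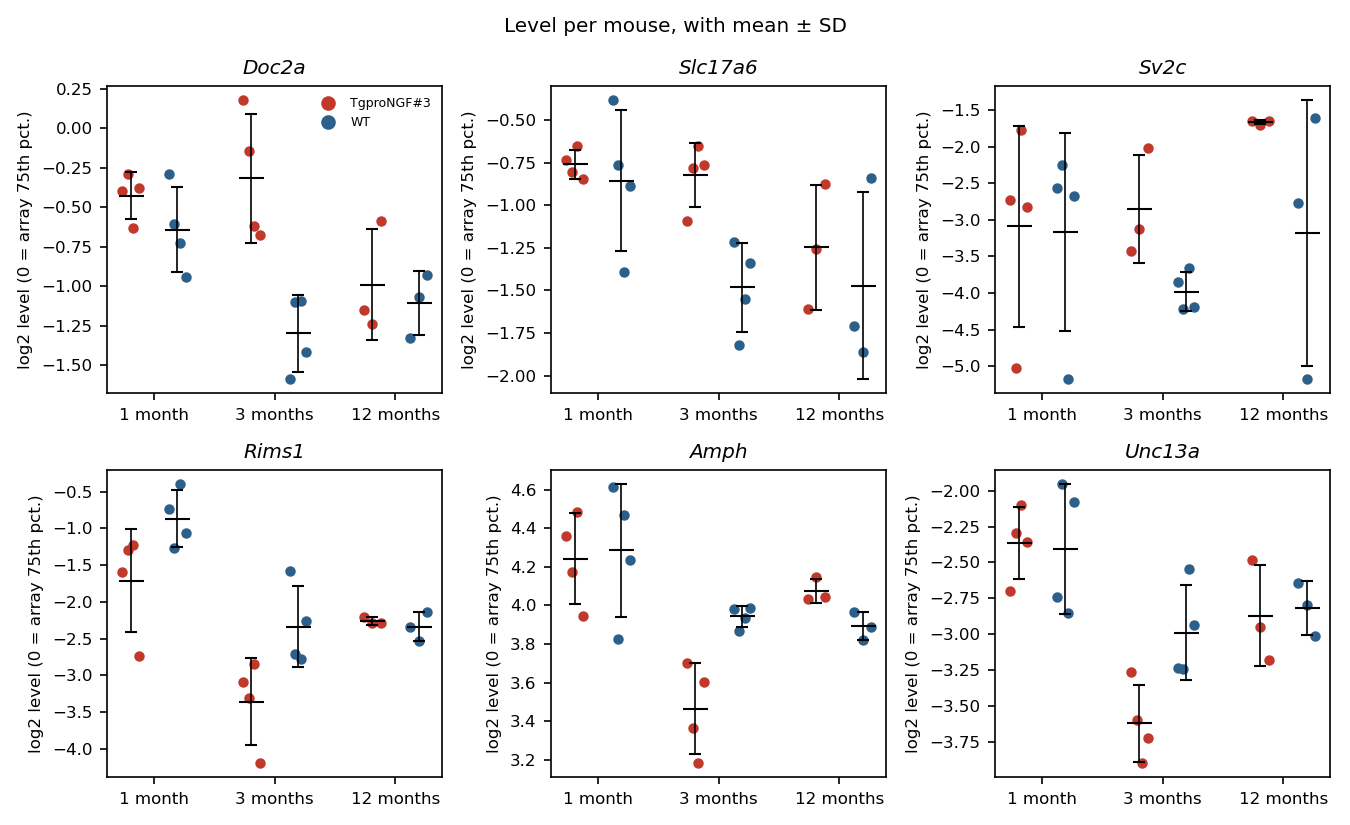
Level of 6 genes in each mouse (y axis, log2 relative to the 75th percentile of the array) by age and genotype, with the mean and SD in black. At 3 months the groups do not overlap for any of the 6, and TgproNGF#3 replicate 4 has no measured value for Sv2c at that age.

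The hippocampus as labelled was checked on cell type markers. All 8 pyramidal neuron and all 8 dentate granule neuron markers were above background on every array. At 3 months 7 of 8 pyramidal markers and 7 of 8 granule cell markers were lower in TgproNGF#3 mice, with summed levels of 16.1 to 20.3 against 20.7 to 23.5 and of 2.80 to 5.46 against 4.81 to 6.39. Inhibitory neuron markers did not share this, with 5 of 8 higher and sums of 69.2 to 97.9 against 74.3 to 96.5. Oligodendrocyte markers were higher for 5 of 8 genes, and their sums did not overlap (71.3 to 82.3 against 54.2 to 69.7). The fibroblast markers of the leptomeninges, the membrane around the brain, were higher for 8 of 8 genes, with sums of 62.0 to 95.1 against 61.0 to 74.4. Astrocyte markers were lower for 6 of 8 genes (26.8 to 33.4 against 29.4 to 31.6), and microglial and endothelial markers were higher for 4 and 5 of 8, with overlapping sums. The endothelial marker Cdh5, which encodes VE-cadherin, was called down (Log2 FC -2.07, limma adjusted p = 0.0126). Adjusted limma p-values were also below 0.05 for the pyramidal markers Fibcd1 (Log2 FC -0.93), Spink8 (-0.78) and Grik4 (-0.64). The same held for the granule cell marker Pdzd2 (-0.82) and the oligodendrocyte marker Opalin, which was higher (0.73). The part of these cell types in the differences of the presynaptic genes at 3 months was not tested.

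Taking 1 probe per gene, the genes moved little as a group at the younger ages. At 1 month the median Log2 FC of the 42 genes was 0.03, against 0.07 for all 17249 genes tested, and at 3 months it was 0.00 over 41 genes, against -0.05. How many lay on each side of 0 changed with the scaling. At 1 month 27 were higher and 15 lower, but 15 higher and 27 lower with the percentile taken over all spots. At 3 months the split was 21 to 20, and 28 to 13 with that percentile. That setting shifted the median of all genes at 3 months by 0.13.

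At 12 months 37 of the 41 genes had a positive Log2 FC (90.2%), against 59.9% of all genes. Their median was 0.20, against 0.06 for all genes, a difference of 0.14, which came to 0.06 after quantile normalization. The 4 genes on the negative side were Rph3a, Unc13b, Unc13a and Napa. Under the other scalings 37, 40 and 38 of the 41 were positive, and aligning arrays to the median shifted all genes by 0.15. Relative to the median of all genes, 36 of 41 lay above it, and 30 after quantile normalization. Values of the 2 groups did not overlap for 16 of 58 probes (27.6%), which belong to 11 genes, against 15.5% of all probes. Of the 16, 14 were higher and 2 lower, and the share of all probes by direction was not taken. At 3 months the groups did not overlap for 10 of 58 probes (17.2%, against 20.3%) and at 1 month for 1 of 60, against 3.32%.

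The shift at 12 months was also read mouse by mouse, as the median over the genes of the level minus the WT mean, less the same median over all genes. In TgproNGF#3 mice it was 0.21, 0.07 and 0.15, and in WT mice -0.01, -0.03 and 0.05. The WT values lie around 0 because their own mean was subtracted. This reading uses the same values as the counts above and is no separate support. All TgproNGF#3 mice lay above all WT mice, also above WT replicate 3 (0.05), the only WT mouse in their array row. With the row as a block the difference between the medians was 0.09, which rests on that WT mouse alone. At 3 months the TgproNGF#3 mice stood at -0.13, 0.30, 0.21 and -0.07 and the WT mice between -0.07 and 0.07. At 1 month both groups spread on either side of 0, from -0.21 to 0.11 and from -0.14 to 0.26.

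**Figure D3:**
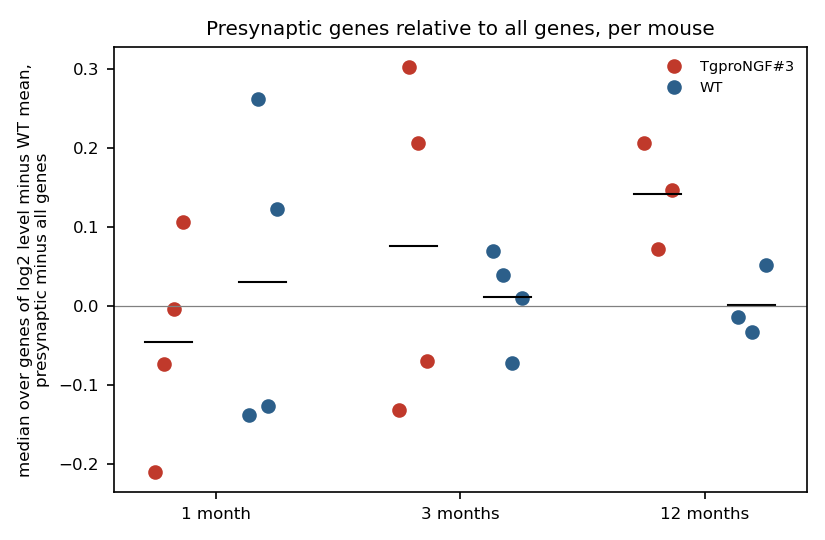
Median over the presynaptic genes of the level minus the WT mean, less the same median over all genes (y axis, log2), for each mouse by age, with group means as lines. At 12 months the TgproNGF#3 mice lie at 0.07 to 0.21 and the WT mice at -0.03 to 0.05, while at 1 and 3 months the groups overlap.

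The neuronal marker lists did not move alike at 12 months. All 8 inhibitory neuron markers had a positive Log2 FC, with summed levels of 116 to 127 against 80.5 to 113, and 7 of 8 pyramidal markers did, with 21.2 to 24.5 against 19.0 to 21.3, but none of them was called. Dentate granule markers did not (3 of 8 higher, 1 called down, 3.88 to 5.06 against 4.90 to 5.15). Of the thalamic markers 5 of 7 were higher and 1 was called down, with sums of 3.47 to 5.28 against 4.18 to 6.13. Glial markers lay mostly on the lower side, with 7 of 8 microglial markers lower (sums of 20.02 to 21.99 against 21.8 to 24.8), 7 of 8 oligodendrocyte markers (62.6 to 102.9 against 79.1 to 111.2) and 5 of 8 astrocyte markers (36.4 to 39.0 against 38.7 to 40.9). The fibroblast markers of the leptomeninges were lower for 7 of 8 genes, with sums of 25.9 to 61.5 against 71.9 to 82.7 and 3 genes called down. All 8 choroid plexus markers were lower, with wide and overlapping sums (8.76 to 133.9 against 9.86 to 193.6). The part of these cell types in the shift of the presynaptic genes was not tested.

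A list of 70 other presynaptic genes was read beside these 42. It was called in 0 of 112 probes at 1 month (against 0.57% of all probes), 2 of 108 at 3 months (1.85%, against 6.76%) and none at 12 months (against 1.3%). At 3 months 5 of its genes, 3 of them described here, had an adjusted limma p below 0.05. Ap2a2, a subunit of the clathrin adaptor AP2, and Cltc, the clathrin heavy chain, were the 2 called genes, with Log2 FC of -2.39 ± 0.41 (adjusted p = 0.0094) and -1.88 ± 0.28 (adjusted p = 0.0059). Prrt2, which encodes a SNARE-binding protein, was lower by less, with a Log2 FC of -0.90 ± 0.20 (adjusted p = 0.0263). Of the 32 probes of this list with an unadjusted p below 0.05 at 3 months, 9 were higher (8.33% of the list, against 7.48% of all probes) and 23 lower (21.3%, against 19.7%), shares near those of the whole array. At 12 months 56 of its 69 tested genes had a positive Log2 FC (81.2%), with a median of 0.15.

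Whether the effect changed between ages was tested for each probe. The difference between the 3- and 1-month effects had an adjusted p below 0.05 for 0 members, against 1.75% of all probes, and that between 12 and 3 months for 0, against 4.01%. The smallest adjusted p-values among the members for 12 against 3 months were those of a further probe of Cadps2 (0.63 ± 0.18, adjusted p = 0.0709) and of Amph, given above, while the brightest probe of Cadps2 gave 0.52 ± 0.22 (adjusted p = 0.199). For 3 against 1 month it was the dimmest probe of Cadps2 (-1.24 ± 0.34, adjusted p = 0.0815). Several more had an unadjusted limma p below 0.05, Rims1 (1.10 ± 0.44 for 12 against 3 months, adjusted p = 0.181) among them.

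Agreement between probes of a gene could be read for 13 genes at 1 month and for 12 at 3 and at 12 months. All probes of a gene had the same sign for 5 of 13 genes (38.5%, against 59.3% of all genes with several probes), 6 of 12 (50%, against 59.6%) and 8 of 12 (66.7%, against 64.7%). Most of the Log2 FC values compared were near 0, where a sign means little. The median range between the probes of a gene was 0.22, 0.30 and 0.24, and no gene had a range above 1 at any age, against 0.85%, 10.4% and 1.91% of all genes. When each probe was tested against the brightest probe of its gene within the same mice, 0 of 18, 17 and 17 differed with an adjusted limma p below 0.05, against 0, 10.6% and 0 of all such probes. An unadjusted p below 0.05 was reached by 2, 3 and 2 probes, against 5.74%, 30% and 7.13% of all such probes.

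Larger differences between probes were seen in a few genes. Syn2 at 3 months had -0.06 with its brighter and 0.53 with its dimmer probe, a difference of 0.59 ± 0.16 (limma adjusted p = 0.0560). For Cplx2, a complexin, the 4 probes ran from -0.78 to -0.11 at 3 months, all negative. The dimmest probe of Cadps2 lay 0.87 ± 0.26 below the brightest at that age (adjusted p = 0.0742). At 12 months Erc2 had 0.24 with its brighter and -0.39 with its dimmer probe, each without overlap between the groups, and the probes differed by -0.64 ± 0.13 (adjusted p = 0.689). Napb and Rims1 at 1 month and Syngr1 at 12 months were the other genes with an unadjusted p below 0.05 for this difference. Pclo was the steadiest of the genes with 4 probes, with Log2 FC between -0.13 and 0.00, between -0.36 and -0.19, and between 0.05 and 0.27 at the 3 ages.

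**Figure D4:**
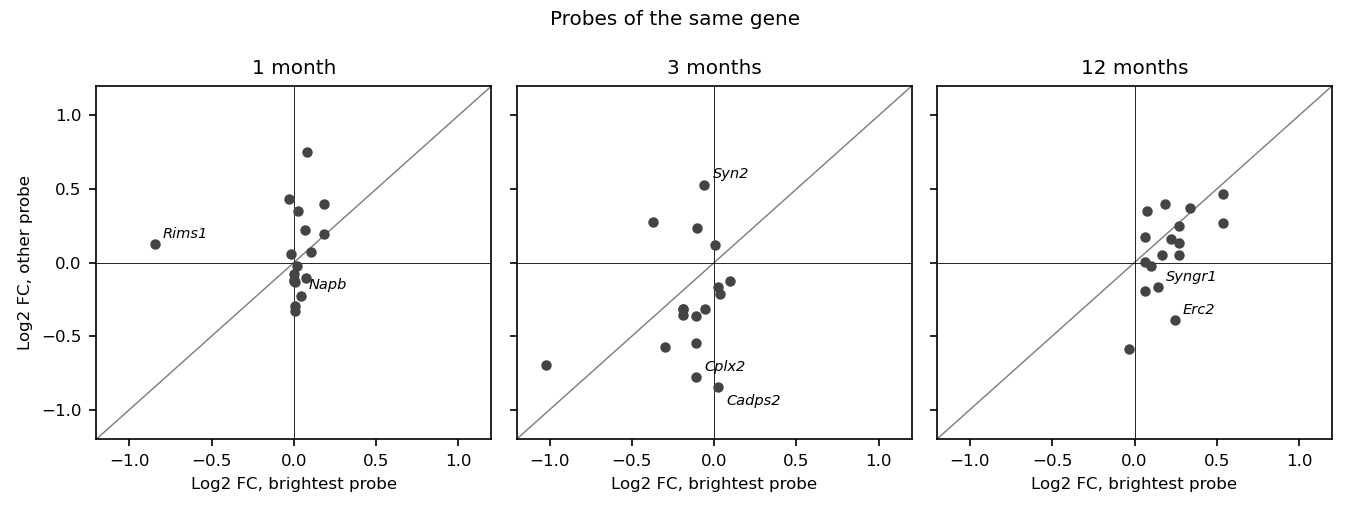
Log2 FC of each further probe (y axis) against that of the brightest probe of the same gene (x axis) at 1, 3 and 12 months, with the diagonal marking equal values and names given where the unadjusted limma p of the difference is below 0.05. At 1 month the brightest probes other than that of Rims1 lie near 0, and at 12 months 13 of 17 further probes share the sign of the brightest.

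The promoters of the genes were also read for 2 short motifs known from neuronal genes, and the matches are printed to show which members hold them. RefSeq (GRCm38.p6) gives promoters for 36 of the 42 genes, each from 250 bases before to 50 bases after the transcription start, and both strands were searched. The letters TGACGTCA, the full cAMP response element, occurred in 3 of the 36 (8.33%), against 2.03% of the 27025 genes with a promoter of that length in the table. The letters TTCAGCACC, the first part of the RE1 element that the neuronal repressor REST binds, also occurred in 3 (8.33%), against 0.433%. These shares were not tested, and no other list of neuronal genes was read for comparison. The 2 motifs share no overlap in these windows, and a match describes the letters, not a site in use. The 30 bases around each match are shown on the strand of the gene, with the motif in capitals.
Napa, chr7:16098562-16098591, plus strand: gcaggcctgggTGACGTCAacgcagcgggc
Sh3gl2, chr4:85205408-85205437, plus strand: atcacccgcccTGACGTCAgggtgtctctc
Syn1, chrX:20921059-20921088, minus strand: caaaggctgacTGACGTCActcactagccc
Ppfia3, chr7:45367047-45367076, minus strand: ctcattggccaTTCAGCACCgtccgtcagt
Syn1, chrX:20921132-20921161, minus strand: gcactgtcggaTTCAGCACCgcggtcagag
Unc13a, chr8:71671717-71671746, minus strand: tccgcgcccccGGTGCTGAAgcgacatggc

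In Unc13a the capitals are the reverse complement of the motif and lie after the start. At 12 months the genes with these letters stood on both sides of 0, with Log2 FC of -0.03 for Napa, 0.34 for Sh3gl2, 0.22 for Syn1, 0.10 for Ppfia3 and -0.05 for Unc13a.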

How the data were processed

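Arrays of 22 mice were read, grouped by the sample labels. The intensity of each spot was deposited as Feature Extraction 10.7.3.1 gives it, background-subtracted and without scaling between arrays. The authors also deposited log2 values of this signal aligned at the 75th percentile, for 28929 probes that include 56 of the probes described here. These log2 values served as an alternative. Design build mm9 was not used for coordinates. Controls, outlier spots and spots not well above background were removed, and log2 intensities were taken relative to the array's 75th percentile. Values were averaged per probe. Within each age, limma (3.58.1, R 4.3.3, two-sided) compared the genotypes wherever a probe had 2 or more values per group. The procedure was tested on simulated data. Probes were assigned through RefSeq transcripts. The results of some other genes are not reported here.

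The 42 genes and all lists were chosen with earlier results of these data known. Named are, at each age, genes with a called probe or an adjusted p below 0.05, and the 2 genes with the smallest p on each side. Others are said to be chosen after their values were seen, or describe roles, probes or promoters. Alternatives changed the background correction, filters, scaling, thresholds, fit and blocks, and left out each mouse.

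At 1 month arrays with the same replicate number deviated from their group means together (correlations 0.511, 0.272, 0.191 and 0.208 across 36103 probes). These arrays also lie in the same row of the slide, so pairing of mice and array row cannot be told apart. Same-numbered arrays did not deviate together at 3 months (-0.356 to -0.0234) or at 12 months (-0.316 to 0.0503). The labels name single mice, and no 2 arrays were identical (highest correlation 0.994). The number of arrays limits the precision. For 4 mice against 4 the smallest two-sided p of an exact permutation test is 0.029, and for 4 pairs it is 0.125.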

Additional observations from a re-analysis of the deposited data

Results flagged for a closer look

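In 4 of 59 groups of 4 mice tested for the named genes, 1 mouse stood apart from the others of its group by Dixon's test at the 95% level. Chance does this in about 1 in 20 groups. For Sv2c, WT replicate 3 at 1 month had a level of -5.18. For Unc13c, TgproNGF#3 replicate 4 at 1 month had a level of -3.46, and without this mouse the Log2 FC was -0.31 in place of -0.63. For Cadps2, WT replicate 3 at 3 months had a level of -0.41 with the other WT mice at about -0.01, and TgproNGF#3 replicate 1 at 1 month had a level of 0.85.

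The dimmer probe of Sv2c was left out of the 12-month comparison because it was well above background in 3 of 3 TgproNGF#3 mice and 0 of 3 WT mice. Against the lowest signals above background on the WT arrays it was at least 1.26-fold higher in TgproNGF#3 mice, a bound that was not tested.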

How the results depend on the processing

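Of the 14 results for named genes, 12 kept their direction in every alternative run. Sv2c at 3 months turned to -0.16 with dim spots kept, where the low spot of TgproNGF#3 replicate 4 enters, and Unc13b at 12 months turned to 0.040 with arrays aligned to the median. The count of called probes at 3 months was 2, and it was 1 with all 22 arrays in the same fit, 1 with the log2 values of the authors, 1 when a probe had to be above background on every array, 0 after the normexp correction (run on median signals, which the files hold), 15 with an unadjusted p alone, and 1 to 3 when a mouse was left out. Doc2a was called and Rims1 was not with the percentile over all spots, with arrays aligned to the median and with dim spots kept. The same held with the log2 values of the authors, where Doc2a was the only called gene. At 1 month the count was 0, and 3 with an unadjusted p alone and 0 to 1 without a mouse (Sv2c without TgproNGF#3 replicate 1, Rims1 without replicate 3). At 12 months it was 0, and 1 with arrays aligned to the median, 5 with an unadjusted p alone and 0 to 1 without a mouse. The cause of these changes was not tested.

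The median of the genes minus that of all genes at 12 months was 0.14, came to 0.059 after quantile normalization and ran from 0.11 to 0.17 without a mouse. At 1 month it ran from -0.09 to 0.06 (positive without WT replicate 2) and at 3 months from -0.05 (without TgproNGF#3 replicate 2) to 0.16. The count of probes unlike the brightest was 0 at each age. At 3 months it was 1 (Syn2) after normexp and 0 to 1 without a mouse, and at 1 and 12 months 0 to 0. The fit of 22 arrays was not run for it. Probes whose effect changed between 3 and 12 months numbered 0, and 1 (Doc2a) with the percentile over all spots, 1 with the log2 values of the authors and 0 to 2 without a mouse. Between 1 and 3 months they numbered 0, and 2 (Rab3b and Rims2) with the percentile over all spots, 1 (Cadps2) with all 22 arrays in the same fit, 1 (Rab3b) with the log2 values of the authors and 0 to 1 without a mouse.

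When the replicate number entered as a block, 0 probes were called at 1 month, 2 at 3 months and 0 at 12 months, as without it. The block changed no call at 1 month, where same-numbered arrays deviated together. At 3 months, where they did not, the adjusted p was 0.0924 for Doc2a and 0.138 for Slc17a6.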
